A study of Sus scrofa with 16 samples.

Results

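Antimicrobial peptides and proteins of the pig were followed across 16 one-colour arrays of colonic mucosa and liver. A probe was counted when the array design named it for PMAP-23, PMAP-37, PR39, NPG1, NPG3, DEFB1, LTF or LYZ, or described it as one of these products, and 11 of the 43603 probes met that rule. PMAP-23, PR39 and DEFB1 had 1 probe each, LTF had 2, and LYZ and the protegrins had 3 each, while 0 probes carried the name PMAP-37, though 1 probe described only as a cathelicidin may read it. Taking the protegrins as 1, these are 6 of 6751 genes that could be named on the array. The list was chosen from earlier results of these arrays, which included the colonic signals by diet. That difference is therefore described below without a p-value for any member, and a count of members past a cutoff there is not taken as a test.

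The samples came from Duroc × Landrace × Large White barrows, which are castrated males, slaughtered at 170 d of age. From 70 d of age they ate a corn and soybean diet that held purified corn starch (CS group) or, in its place, purified raw potato starch (RPS group), at 230 g/kg while growing and at 280 g/kg from 120 d of age. Raw potato starch partly resists digestion in the small intestine, so that more starch can reach the colon. Pigs were kept 3 to a pen with 6 pens per diet, and 4 arrays were made for each tissue and diet from scraped mucosa of the proximal colon and from liver. Each group of 4 arrays lay on 1 slide and was scanned once, and no slide held more than 1 group. A slide effect therefore cannot be told apart from an effect of diet or of tissue. P-values measure the spread between the pigs sampled.

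Antimicrobial peptides kill or inhibit microbes directly, mostly by damaging their membranes. In the pig the cathelicidins form a large family, and PMAP-23, PR39 and the protegrins are stored as inactive precursors in the granules of neutrophils and cut free when the cells release them. Beta-defensin 1 is made by epithelium. Lactotransferrin binds iron and is a granule protein of neutrophils and a product of glandular epithelium, and lysozyme cuts the peptidoglycan of bacterial walls and comes from macrophages, neutrophils and secretory epithelium. Both tissues were measured whole, so more cells of a type and more RNA per cell cannot be told apart.

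The cathelicidin genes are related to one another, and the probe sequences show how far the array could separate them. The last 30 bases of each 60-base probe are given 5′ to 3′ as the array design writes them, with capitals where a run of at least 10 bases is shared with the PMAP-23 probe (in PMAP-23 itself, where the run is shared with protegrin probe 2). The protegrin probes are numbered from the brightest to the dimmest.
PMAP-23: aggactggaaAAATAAATTCTTGTGAAAgc
protegrin probe 1: aggcccgcatctgtcAAATAAATTCTTGTG
protegrin probe 2: cccgcatctgtcAAATAAATTCTTGTGAAA
protegrin probe 3: gcatctgctttgcccaggcccgcatctgtc
PR39: tgagcccagggaaagtcctaggatcttatt
PMAP-36: ctgagAAATAAATTCTatgaaagcttcttc
probe described as cathelicidin antimicrobial peptide: cttctgtactatGAAAAATAAATTattctg

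The run AAATAAATTCTTGTGAAA, of 18 bases, was found in 2 of the 43603 probes, the PMAP-23 probe and protegrin probe 2. Protegrin probe 1 carried 15 bases of it and probe 3 ended before it. All these runs hold AATAAA, the usual polyadenylation signal, which 9.6% of the probes on the array contained. The PR39 probe shared no run of 10 bases with that of PMAP-23. The 3 protegrin probes overlapped by 42 to 57 bases, so they read nearly the same stretch and are not separate measurements of a gene. They are labelled NPG4, yet each lists 4 transcripts, one of which belongs to NPG1 in the RefSeq gene table, and they are therefore called protegrin probes without a number for the gene. In that table (assembly Sscrofa11.1) NPG4, PR39, PMAP-23, NPG1 and PMAP-36 lie near one another on a single chromosome. PMAP37 is given there as another name of NPG4, the label of the protegrin probes, so which probe reads PMAP-37 is not settled here. Among the lysozyme probes, 2 of the 3 shared 45 bases.

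Before normalization the median signals of the colonic arrays did not overlap between the diets, at 56.34 to 70.8 with CS and 34.15 to 42.52 with RPS, while the liver arrays lay between 30.6 and 37.88. This gap follows diet and slide alike, and quantile normalization removes it. On all arrays 61% to 72.2% of probes were well above background by the scanner software's own flag. Hepatocyte markers were lower in the colon at 14 of 14 genes, and epithelial markers were higher there at 16 of 19 (limma, adjusted p under 0.05 and fold above 1.5). In the colon, CS replicate 3 and RPS replicate 2 stood apart from the other 6 arrays. Their median correlations with the other colonic arrays were 0.936 and 0.95, against 0.975 to 0.985 for the rest, and each resembled the other most. Colonic results of the members are therefore given with and without this pair, and those of most gene lists where the pair changes a count.

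In colonic mucosa the cathelicidins were higher with the RPS diet, by 1.74-fold to 2.96-fold over their 5 probes, while DEFB1 and LTF had lower means and LYZ a higher mean amid a wide spread. An unadjusted p under 0.05 with a fold above 1.5, the thresholds of the study's methods, was met by 5 of the 11 probes, all higher with RPS. The choice of members helped to set this count, 3 of the 5 are overlapping protegrin probes, and nothing is read from it. Over the whole array 2.94% of probes met the thresholds, and 1.62% did so in the upward direction. After Benjamini-Hochberg adjustment over all probes 0 of 43603 passed with limma, against 1283 with an unadjusted p, so no colonic gene is said here to have risen or fallen. The median log2 difference was 0.64 over the 11 probes and 0.01 over all probes.

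These differences are relative to the array as a whole. Without normalization between arrays, a choice made after seeing the data, the median of all colonic probes was -0.67. PMAP-23 was then at 0.69 (standard error 0.39), PR39 at 0.79 (standard error 0.56) and protegrin probe 1 at 0.03 (0.0315, standard error 0.33), so they lay above the array's median while the protegrin signals themselves were nearly level. The unnormalized signals of protegrin probe 1 were 188.4, 186.7, 348.1 and 222.2 with CS and 271.2, 342.9, 133.6 and 238.8 with RPS, and the groups overlapped. DEFB1 was at -1.42, LTF probe 1 at -1.75 and the brightest LYZ probe at 0.01 (0.0088), and 0 of the 11 probes met the thresholds.

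PMAP-23, a cathelicidin whose mature peptide forms an alpha helix, had log2 signals of 4.14, 3.47, 4.33 and 3.09 in the CS group (replicates 1 to 4) and of 5.36, 5.78, 5.17 and 4.59 in the RPS group. Every RPS array lay above every CS array. Groups that did not overlap were found at 1 of the 11 probes and at 6.52% of all probes. The means were 5.22 ± 0.50 (SD, n = 4) with RPS and 3.76 ± 0.58 with CS, a log2 difference of 1.47 (standard error 0.35) or 2.77-fold. The difference was 1.47 also without the pair of arrays that stood apart. With normexp background correction and an offset of 50, which shrinks differences of dim signals, it was 0.36.

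PR39, a peptide rich in proline and arginine that enters bacteria and blocks their protein synthesis, had log2 signals of 3.93, 3.85, 3.82 and 2.39 with CS and of 6.08, 5.74, 3.79 and 4.64 with RPS. Only RPS replicate 3 fell within the CS range, and CS replicate 4 was not well above background. The difference was 1.57 (standard error 0.59), or 2.96-fold. It was 1.44 without the pair of arrays and 0.33 with normexp.

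The protegrins are short peptides folded into a hairpin held by disulfide bonds. Protegrin probe 1 had log2 signals of 7.25, 7.33, 7.93 and 7.28 with CS and of 8.43, 8.61, 7.61 and 8.33 with RPS. The groups overlapped through replicate 3 of each, the highest of the CS arrays and the lowest of the RPS arrays. The log2 difference was 0.80 (standard error 0.26) at probe 1, 0.99 (standard error 0.26) at probe 2 and 1.04 (standard error 0.28) at probe 3. Without the pair of arrays the 3 differences were 0.84, 1.08 and 1.15, and the groups of 3 no longer overlapped at any of these probes.

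DEFB1, beta-defensin 1, varied within each diet more than between diets. Its log2 signals were 4.27, 5.42, 7.65 and 5.25 with CS and 4.40, 7.44, 3.88 and 4.29 with RPS. The single high array of each diet, CS replicate 3 and RPS replicate 2, was the pair that stood apart from the other colonic arrays. The difference was -0.65 (standard error 0.99) over 8 arrays and -0.79 (standard error 0.35) over the other 6.

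LTF probe 1 had log2 signals of 5.65, 6.86, 8.38 and 6.97 with CS and of 5.62, 6.11, 4.45 and 7.77 with RPS, and the groups overlapped widely. The difference was -0.98 (standard error 0.81), and -0.54 without the pair of arrays. LTF probe 2 was well above background on 1 of the 8 colonic arrays, CS replicate 3, and its level is not given for the rest.

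LYZ, lysozyme, had log2 signals at its brightest probe of 15.34, 15.50, 15.77 and 15.87 with CS and of 16.78, 15.20, 15.62 and 17.44 with RPS. The CS arrays spanned 1.45-fold, whereas the RPS arrays spanned 4.72-fold, with replicates 1 and 4 above all CS arrays and replicates 2 and 3 within or below their range. The difference was 0.64 (standard error 0.49) and became 1.04 without the pair of arrays. The other LYZ probes gave 0.62 and 0.58.

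**Figure D1:**
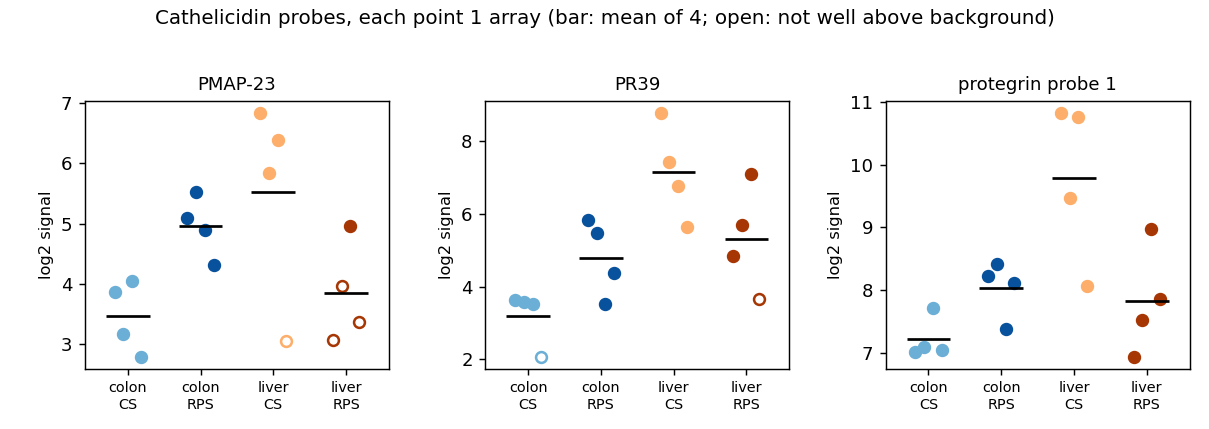
Log2 signal, quantile normalized over 16 arrays, of PMAP-23, PR39 and protegrin probe 1 in each tissue and diet. Each point is 1 array, the bar is the mean of 4, and open points were not well above background. Group means of PMAP-23 were 3.47 and 4.96 in the colon (CS, RPS) and 5.53 and 3.84 in the liver, so the order of the diets differs between the tissues.

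In the liver the same cathelicidin probes had lower means with the RPS diet, by 3.27-fold to 4.30-fold, and none of these differences passed the adjusted test. Of the 11 probes 3, all of them protegrin probes, met the unadjusted thresholds, and 3.56% of all probes did, 1.76% in the downward and 1.8% in the upward direction. The groups did not overlap at 0 of the 11 probes and at 4.45% of all probes. The smallest adjusted p among the members was 0.554 (limma, Benjamini-Hochberg over 43603 probes), and 0.00229% of all probes passed after adjustment. The median log2 difference was -0.35 over the 11 probes and -0.004 over all probes, and 10 of the 11 were lower. With 4 arrays against 4 the smallest p an exact permutation test can give is 0.0286.

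Protegrin probe 1 had log2 signals of 10.68, 9.30, 10.62 and 7.85 in the livers of the CS group and of 6.70, 7.31, 8.79 and 7.64 in those of the RPS group. The CS livers ranged over 7.1-fold and the RPS livers over 4.24-fold, and the groups overlapped through CS replicate 4 and RPS replicate 3. The difference was -2.003 (standard error 0.72, 4.01-fold, adjusted p = 0.582 by limma, two-sided exact permutation p = 0.0571). Probes 2 and 3 gave -2.10 and -2.05.

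PMAP-23 and PR39 shared their lowest CS liver and their highest RPS liver with the protegrins. PMAP-23 had log2 signals of 6.60, 5.59, 6.14 and 2.76 with CS and of 2.78, 3.69, 4.69 and 3.08 with RPS, and was well above background on 3 CS arrays and on 1 RPS array. Its difference was -1.71 (standard error 0.87, adjusted p = 0.719 by limma, exact permutation p = 0.171), and -0.47 with normexp. PR39 had 8.58, 7.22, 6.52 and 5.38 with CS and 4.57, 5.43, 6.85 and 3.37 with RPS. Its difference was -1.87 (standard error 0.90, adjusted p = 0.703 by limma, exact permutation p = 0.143), and -0.74 with normexp. These were CS replicate 4 and RPS replicate 3, whereas the lowest liver of all was RPS replicate 1 for protegrin probe 1, CS replicate 4 for PMAP-23 and RPS replicate 4 for PR39.

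The number of liver probes past the unadjusted thresholds rested on single animals. Leaving out CS replicate 1, or CS replicate 3, or RPS replicate 1 brought it to 0, leaving out RPS replicate 2 to 1, and leaving out CS replicate 4 to 5. With each of the 8 livers left out in turn, the difference at protegrin probe 1 lay between -2.59 and -1.65.

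LTF and LYZ had smaller differences. LTF probe 1 had log2 signals of 7.51, 6.97, 6.41 and 7.45 with CS and of 8.55, 5.67, 7.21 and 5.49 with RPS, a difference of -0.35 (standard error 0.69, adjusted p = 0.947 by limma, exact permutation p = 0.686). The highest and the lowest liver both belonged to the RPS group. LYZ had 8.93, 8.45, 8.20 and 8.21 with CS and 8.20, 8.52, 8.45 and 8.27 with RPS, and its difference of -0.09 had a standard error of 0.18 (adjusted p = 0.953 by limma, exact permutation p = 0.8286). DEFB1 was not well above background on any of the 8 liver arrays, so no fold is given.

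**Figure D2:**
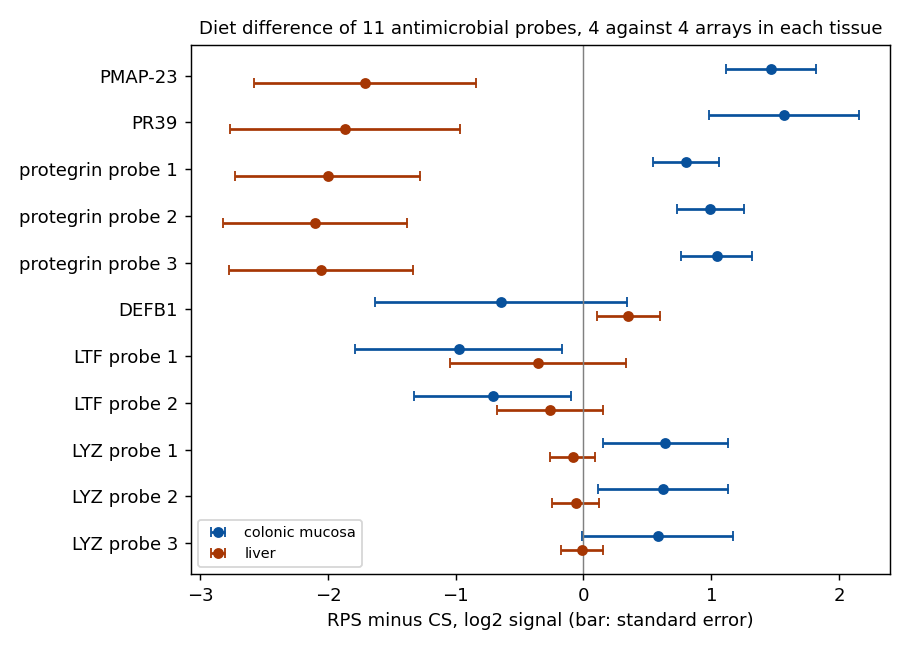
RPS minus CS on the log2 scale for the 11 probes in colonic mucosa and in liver (4 against 4 arrays each, bars are standard errors from limma). The 5 cathelicidin probes lie between 0.80 and 1.57 in the colon and between -2.10 and -1.71 in the liver. LTF probe 1 lies at -0.98 in the colon and the remaining probes lie between -0.71 and 0.64, and the difference between the tissues was not tested.

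The PMAP-23, PR39 and protegrin probes varied together from array to array in the liver, and less closely in the colon once the diet means were taken off. In the liver Pearson's r between probes of different cathelicidins lay between 0.81 and 0.96 over 8 arrays, and between 0.67 and 0.95 after each diet's mean was taken off. In the colon it lay between 0.75 and 0.85, and between 0.33 and 0.68 with the diet means taken off. These arrays share slides within a diet, some of the probes share sequence, and the values are given as a description. LTF, also a granule protein of neutrophils, had r between -0.24 and 0.29 with the cathelicidin probes in the liver and between -0.45 and 0.1 in the colon. LYZ had r between 0.44 and 0.72 with the cathelicidin probes in the liver and between -0.01 and 0.54 in the colon. PMAP-36, a further cathelicidin, had r between -0.21 and 0.3 with them in the liver and between 0.44 and 0.77 in the colon. S100A8, a calcium-binding protein abundant in neutrophils and monocytes, had r between 0.84 and 0.96 in the liver and between 0.35 and 0.76 in the colon. CXCR2, the chemokine receptor of neutrophils, had r between 0.18 and 0.45 in the liver and between -0.25 and 0.03 in the colon. With the diet means taken off in the colon, r with the cathelicidin probes was 0.42 to 0.91 for PMAP-36. It was 0.38 to 0.81 for DEFB1 and -0.26 to 0.84 for LTF, so high values were not particular to the cathelicidins there.

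**Figure D3:**
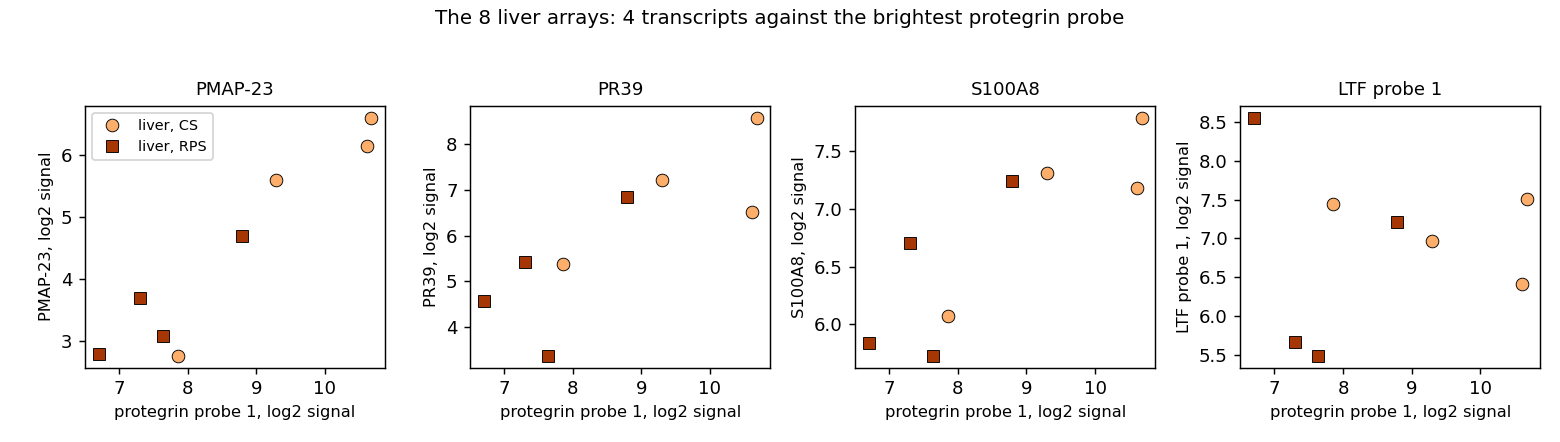
PMAP-23, PR39, S100A8 and LTF probe 1 (y axes) against protegrin probe 1 (x axes), as log2 signals on the 8 liver arrays, circles for CS and squares for RPS. PMAP-23, PR39 and S100A8 were higher where the protegrin probe was higher (r of at least 0.81 at this probe), whereas LTF was not (r of -0.02).

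Neutrophil markers were read beside these results, since the cathelicidins belong to that cell. Of the 22 markers listed, 9 were on the array. S100A8 in the colon was 1.58, 4.36, 6.62 and 3.93 with CS and 5.40, 5.80, 5.77 and 6.02 with RPS, a difference of 1.63 (standard error 0.95). Without the pair of arrays it was 2.43. In the liver the RPS minus CS difference was -0.71 (standard error 0.46) for S100A8, -0.51 (standard error 0.39) for S100A9 and -0.78 (standard error 0.41) for S100A12. None of these had an adjusted p under 0.73 (limma). FCAR, the receptor for immunoglobulin A, was the only one of the 9 past the unadjusted thresholds (0.82 higher with RPS in colon, adjusted p = 0.789, limma). Over the whole array 2.94% of probes met these in the colon. FCAR was dim there, well above background on 3 of 4 RPS arrays and 2 of 4 CS arrays. Without the pair of arrays 2 of the 9 markers were higher past these thresholds, FCAR and S100A8, and MMP9 was lower (-1.66, standard error 0.44, adjusted p = 0.399, limma). Of all probes 5.47% met them without the pair, 45.6% of these as higher with RPS. CXCR2, a defining marker of neutrophils, differed by 0.15 (standard error 0.26) in the colon and -0.02 (standard error 0.15) in the liver. The median difference over the 9 markers was 0.15 in the colon and -0.43 in the liver. The summed signal of the list was 5400 to 10000 in CS colons and 1840 to 6740 in RPS colons. Most of it came from MMP9, a protease that other cells also make, with a difference of -1.09 (standard error 0.49). The sum was 1660 to 2170 in CS livers and 1530 to 1700 in RPS livers. Myeloperoxidase (MPO), the classical enzyme of primary granules, was not well above background on any colonic array and was so on 2 of 8 liver arrays. The part of neutrophil number in the cathelicidin differences was not tested, nor was that of any single granule gene.

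Among macrophage markers, 10 of 12 had lower colonic means with RPS. C1QA, C1QB and C1QC, which encode the chains of the first complement component, were lower with RPS by -0.88, -1.27 and -1.30, and these 3 of the 12 markers on the array met the unadjusted thresholds, with adjusted p from 0.594 to 0.819 (limma), where 1.32% of all probes met them in that direction. Without the pair of arrays 4 did, where 5.47% of all probes met the thresholds in either direction. With the pair kept, the median difference over the 12 markers was -0.40. The summed macrophage signal, much of it from C1QA, C1QB and C1QC, was 45800 to 52100 in CS colons and 15600 to 34800 in RPS colons. LYZ, which macrophages also make, was not lower there, and the part of macrophages in its signal was not tested.

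Between the tissues, lysozyme and DEFB1 were higher in colonic mucosa. PR39, the overlapping protegrin probes and the dimmer LTF probe were higher in liver, whereas PMAP-23 and the brighter LTF probe did not pass the adjusted test. Of the 11 probes 9 passed an adjusted p under 0.05 with a fold above 1.5 (4 higher in colon, 5 lower), where 42.2% of all probes passed, 23.4% as higher in colon and 18.7% as lower. Without the pair of colonic arrays the count was again 9. All tissue values below are on log2 signals normalized over the 16 arrays, with 8 arrays per tissue.

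LYZ showed the widest tissue gap. Its brightest probe averaged 15.98 ± 0.75 (SD, n = 8) in the colon and 8.60 ± 0.24 in the liver, a difference of 7.38 (standard error 0.26) or 167-fold (adjusted p = 1.05e-11, limma). The other probes gave 169-fold and 201-fold. The tissues did not overlap at any of the 3 LYZ probes, as at 26.8% of all probes. The order of the group means was RPS colon (16.29), CS colon (15.67), CS liver (8.64) and RPS liver (8.56), and the diets overlapped within each tissue.

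DEFB1 averaged 5.06 ± 1.49 in the colon and was not well above background in any liver. Against the lowest signals that were well above background on the liver arrays, its mean over all 8 colonic arrays was 3.08-fold higher (measured means 5.06 and 3.13, adjusted p = 0.00706, limma). The measured difference of 1.93 became 1.18 without the pair of colonic arrays that stood apart, with an adjusted p of 0.000527, and 0.53 with normexp, where the adjusted p was 0.052.

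PR39 was lower in the colon than in the liver by a log2 difference of -2.24 (standard error 0.55, adjusted p = 0.0033, limma), or 4.72-fold. Protegrin probe 1 was lower by -1.18 (standard error 0.39, adjusted p = 0.0205), with 7.63 ± 0.57 in colon and 8.80 ± 1.46 in liver. Both differences were farther from 0 in the CS pigs, though the difference between the diets was not tested. With CS arrays only they were -3.96 (adjusted p = 0.00246) and -2.54 (adjusted p = 0.0114), while with RPS arrays only they were -0.53 (adjusted p = 0.661) and 0.22 (adjusted p = 0.75). The protegrin call was also lost with slide as a random block (adjusted p = 0.0577), with diet and replicate number as a block (adjusted p = 0.131) with the methods' t-test (adjusted p = 0.0888) and without normalization between arrays (-0.75, adjusted p = 0.129).

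PMAP-23 did not differ between tissues by the adjusted test (-0.48, standard error 0.48, adjusted p = 0.431, limma), with -2.07 in CS pigs and 1.10 in RPS pigs. Its group means ran from CS liver (5.53 ± 1.70) through RPS colon (4.96 ± 0.50) and RPS liver (3.84 ± 0.83) to CS colon (3.47 ± 0.58). Each group in that order overlapped the next, and the same held for protegrin probe 1 (9.78, 8.04, 7.82 and 7.22 in the same order). PR39 ran from CS liver (7.15 ± 1.31) through RPS liver (5.32 ± 1.44) and RPS colon (4.79 ± 1.06) to CS colon (3.20 ± 0.75), with overlap between neighbours.

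The LTF probes gave unequal answers. Probe 1 was lower in colon by -0.91 (standard error 0.55, adjusted p = 0.187, limma), and probe 2 by -2.32 (standard error 0.35, adjusted p = 5.42e-05), but probe 2 was well above background on 1 of 8 colonic and 6 of 8 liver arrays. With the mean of both probes the difference was -1.61 (adjusted p = 0.00395).

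**Figure D4:**
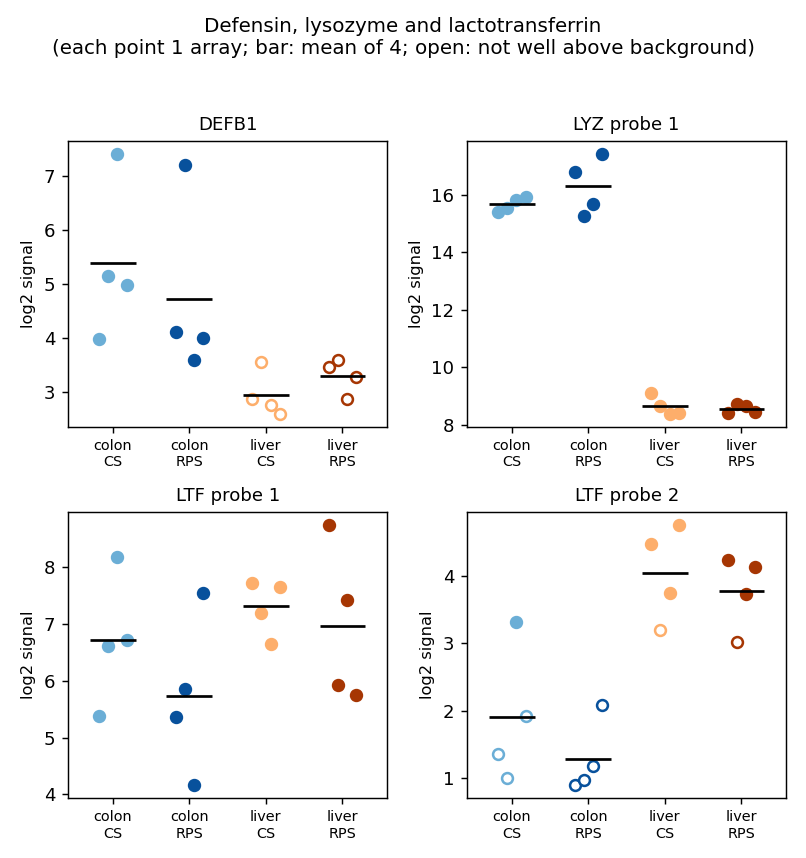
Log2 signal, quantile normalized over 16 arrays, of DEFB1, the brightest LYZ probe and both LTF probes. Each point is 1 array, the bar is the mean of 4, and open points were not well above background, as for all 8 liver arrays of DEFB1. The y axes differ between panels, and LYZ alone separates the tissues without overlap.

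**Figure D5:**
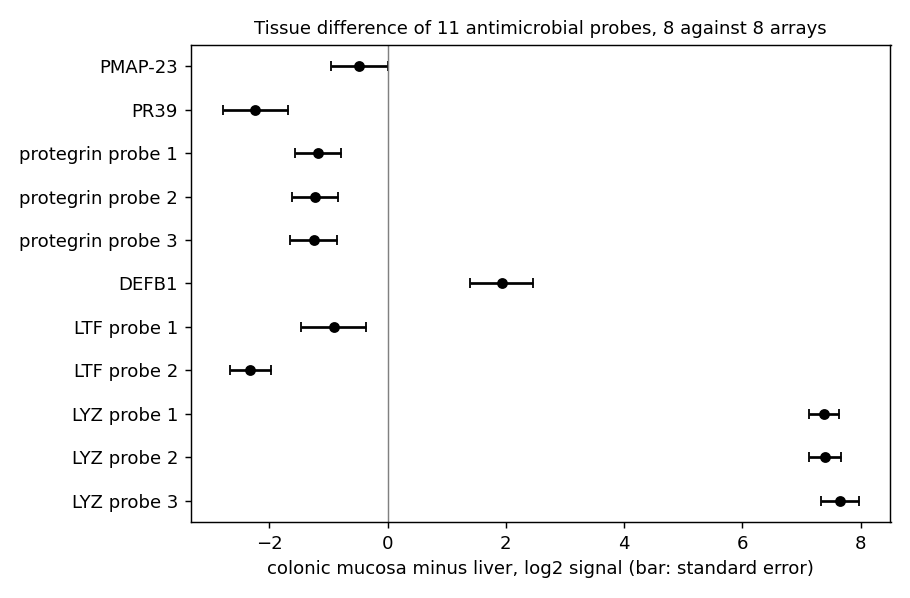
Colonic mucosa minus liver on the log2 scale for the 11 probes (8 against 8 arrays, bars are standard errors from limma). The LYZ probes lie at 7.38 to 7.65 and DEFB1 at 1.93, while the cathelicidin and LTF probes lie between -2.32 and -0.48.

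Other antimicrobial proteins were set beside the members from a list of 58 genes, of which 35 were on the array. In the colon 1 met the unadjusted thresholds in each direction, against 1.62% and 1.32% of all probes, with a median difference of 0.02. The one that was higher with RPS was the probe described as cathelicidin antimicrobial peptide. The tables used here do not tie it to a pig gene, so it could read PMAP-37, which would make it a member. It had log2 signals of 1.81, 0.86, 1.39 and 0.80 with CS and of 4.00, 2.84, 2.66 and 2.88 with RPS. It was well above background on 1 of these arrays, RPS replicate 1, so no fold is given (adjusted p = 0.4, limma). The one that was lower was RNASE6, an antimicrobial ribonuclease of leukocytes (-1.27, standard error 0.51, adjusted p = 0.9). With the pair left out, 2 of the 35 were higher, this probe and S100A8, and 4 were lower, RNASE6, WFDC2, CXCL14 and RNASE4. In that setting 5.47% of all probes met the thresholds, 45.6% of these as higher with RPS. PMAP-36 differed by 0.60 (standard error 0.80) in the colon and by -0.16 (standard error 0.91) in the liver. S100A8 (1.63) and the lectin ITLN2 (1.31, standard error 0.70), which binds microbial sugars, had the largest positive differences among genes that were well above background throughout a diet group, and REG3G, a lectin, the largest negative one (-3.32, standard error 2.79).

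In the liver 0 of the 35 met the unadjusted thresholds, against 3.56% of all probes, while 27 were lower with RPS and the median was -0.19. Named by size, they were HAMP, the hormone hepcidin, which restrains iron export (-1.82, standard error 1.89, but 0.27 without RPS replicate 1), WFDC2, a protease inhibitor of the whey acidic family (-1.17, standard error 0.51), beta-defensin 2 (-0.87, standard error 0.40) and S100A12 (-0.78). Between the tissues 14 of the 35 were higher in colon and 9 higher in liver past both thresholds, against 23.4% and 18.7% of all probes. PI3 (elafin, an inhibitor of neutrophil elastase) was higher in colon by 12.42 on the log2 scale and well above background on 1 of 8 livers. BPI, which neutralizes endotoxin, was at least 656-fold higher in colon and ITLN2 at least 502.5-fold, whereas LEAP2, a liver-made peptide, was at least 310-fold higher in liver (adjusted p from 1.23e-17 to 1.12e-10, limma). Beta-defensin 2 differed between tissues by 0.40 (standard error 0.30, adjusted p = 0.292), unlike DEFB1, and the difference between the pair of genes was not tested.

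Among 36 genes that regulate or process antimicrobial peptides, 28 were on the array. CEBPE, a transcription factor that neutrophil precursors need to make secondary granules, was the only one past the unadjusted thresholds in the colon (0.64 higher with RPS, standard error 0.26, adjusted p = 0.914, limma) and 0 were in the liver. Of all probes 2.94% met these thresholds in the colon and 3.56% in the liver. TLR4, the receptor for endotoxin, differed by -0.56 (standard error 0.24) in the colon, while in the liver the cytokine IL6 differed by -0.9995 (standard error 0.78) and CEBPB, a transcription factor of the acute phase response, by 0.49 (standard error 0.26). Of 11 measured genes for other granule and secretory leukocyte proteins, 0 met the thresholds for diet in either tissue, and AZU1, a primary granule protein, had -0.59 (standard error 0.46) in the liver. Of 4 measured B and plasma cell markers 0 met them, with a median difference of -1.60 in the colon. With the pair of arrays left out 1 did, CD79A of the B cell receptor (-1.94, standard error 0.55), and the median was -2.01. In that setting 5.47% of all probes met the thresholds.

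The genes whose pattern over the 8 colonic arrays was most like that of a member were ranked by Pearson's r over 5139 genes, as a description. For PMAP-23 they were KDM6A (0.959), LEMD3 (0.957), CENPQ (0.935), GGNBP2 (0.93) and SHPRH (0.918). For LTF they were QTRTD1 (0.981), ABCE1, PSMA4, SDE2 and KIF23 (0.927), and for LYZ they were NOP9 (0.937), HSPA1L, ASB7, FDX1 and EDARADD (0.913). For DEFB1 they were LYL1 (0.997), C7H6orf62, KLF12, PITPNC1 and MTPN (0.995). Over the 6 arrays left without the pair that stood apart, the DEFB1 values lay between 0.957 and 0.979, and those of the other members between 0.901 and 0.992.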

How the data were processed

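Total RNA of colonic mucosa and liver was labelled with Cy3 and hybridised to 60-mer arrays of Agilent, 4 arrays per tissue and diet. The deposited scanner files, made by the authors with Agilent Feature Extraction 10.7, hold background-subtracted signal intensities per spot, and the deposited table of log2 values, made by the authors, served as an alternative. Outlier spots were set to missing, log2 intensities were quantile normalized (8 arrays of a tissue for diet, 16 arrays for tissue) as the methods describe, spots of a probe were averaged, and each probe was fitted with limma 3.58.1 in R 4.3.3. The Benjamini-Hochberg adjustment took in all 43603 probes. The scripts were tested on simulated data. The members and gene lists were chosen with earlier results of these data known. A member gene was described at its brightest probe, and of each list up to 4 genes with the largest difference were named where every array of 1 group or more showed the gene well above background. Genes past the diet thresholds, PMAP-36, MPO and the cathelicidin-described probe were named after their values were seen. Columns of the authors' own comparisons were not used here. The labels do not say whether colon and liver arrays of 1 number came from 1 pig. Arrays are limited in precision by their number, and their signals give no read depth.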

Additional observations from a re-analysis of the deposited data

Results flagged for a closer look

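In a group of 4 arrays a single array was set apart where its gap to the nearest of the others as a share of the group's range exceeded Dixon's critical value for 4 samples. Of 44 groups (11 probes in 4 groups) 5 were set apart, all in the colon, and chance flags about 1 in 20 groups. PR39 in CS replicate 4 was at 2.39 against 3.82 for the nearest array (gap ratio 0.927). Protegrin probe 3 was high in CS replicate 3, at 7.48 against 6.73 (0.925), and low in RPS replicate 3, at 7.28 against 8.06 (0.839). Protegrin probe 1 was likewise high in CS replicate 3, at 7.93 against 7.33 (0.888). DEFB1 was high in RPS replicate 2, at 7.44 against 4.40 (0.855), which together with CS replicate 3 formed the pair of colonic arrays that stood apart over all probes.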

How the results depend on the processing

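The count of 5 colonic probes past the unadjusted thresholds, which the choice of members helped to set, was 0 without normalization between arrays, 3 with normexp background correction, 3 with a fold above 2 and 1 with all 16 arrays in 1 fit, and 4 to 5 with 1 array left out. With normexp the colonic differences of PMAP-23 and PR39 moved to 0.36 and 0.33, and without normalization those of PMAP-23 and protegrin probe 1 to 0.69 and 0.0315, where the median of all probes was -0.67. The count of 3 liver probes was 5 with all 16 arrays in 1 fit and 0 to 5 with 1 array left out. With 1 liver left out, the liver difference of LYZ lay between -0.17 and 0.075, turning positive without CS replicate 1, and that of LTF between -0.96 and 0.060, turning positive without RPS replicate 4. The tissue count of 9 was 4 with RPS arrays only and 9 to 10 with 1 array left out. With RPS arrays only, the tissue difference of PMAP-23 turned to 1.10 and that of the protegrins to 0.22, and DEFB1 was at 1.43 (adjusted p = 0.197). The tissue difference of PMAP-23 turned to 0.057 without normalization and passed without liver CS replicate 4 (-0.89, adjusted p = 0.0288). The direction of LYZ between tissues and its call were the same in 30 of 30 alternative settings. The cause of these shifts was not tested.

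Counting all probes, no normalization raised the colonic calls to 17211, of which 0.378% were higher with RPS. Normexp lowered the colonic calls from 1283 to 172 and the liver calls from 1554 to 220, and leaving out colonic RPS replicate 2 raised the colonic calls to 2635. A fold above 2 left 517 and 525. Scaling to the 75th percentile gave 1968 colonic calls, 69% of them higher with RPS against 55.2% before. Omitting both colonic arrays that stood apart, a choice made after seeing the data, gave 2385 (45.6% higher) and kept 4 member probes called, PR39 being the one lost.

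Same-numbered arrays deviated together between tissues in CS pigs (r from 0.146 to 0.329) but not throughout in RPS pigs (-0.072 to 0.13), nor between diets in colon (-0.482 to 0.476) or liver (-0.134 to 0.071), so a number is not taken as a pair. With a replicate block the member counts were 4 in colon, 3 in liver and 6 between tissues, where the protegrin difference of -1.18 was the call of a brightest probe that was lost (adjusted p = 0.131).

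Dim probes limit what can be read. PMAP-23 was well above background on 1 of 4 RPS livers, LTF probe 2 on 1 of 8 colonic arrays and DEFB1 on 0 of 8 livers.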

Other observations

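HAMP, the iron hormone hepcidin, had log2 signals of 16.35, 16.85, 16.10 and 16.47 in CS livers and of 8.35, 16.94, 16.79 and 16.41 in RPS livers, so that RPS replicate 1 lay far below the other 7 livers. The same liver had the highest LTF probe 1 signal (8.55) and the lowest protegrin probe 1 signal (6.70).

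REG3G, a lectin that kills Gram-positive bacteria and is made by gut epithelium, varied widely between colons within each diet. Its log2 signals were 4.14, 9.68, 12.44 and 9.31 with CS and 1.54, 9.28, 0.88 and 10.58 with RPS, where replicates 1 and 3 were not well above background. The colonic array with the lowest CS signal of REG3G, replicate 1, also had the lowest S100A8 (1.58) and S100A9 (1.07) signals, neither of them well above background.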
